A study of Mus musculus with 6 samples.

Results

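Marker genes of 3 tissues, the choroid plexus, the ependyma and the meninges, were read in RNA from dissections of dorsal striatum. The mice were Ash1l heterozygous or wild type (WT). The 32 genes were chosen by name as textbook markers, with earlier results of these data known. All 32 were among the 34745 genes of the deposited table. They comprised 13 choroid plexus, 9 ependymal and 10 meningeal genes. There were 3 Ash1l het libraries, from mice with 1 altered copy of Ash1l, a histone methyltransferase gene, and 3 WT libraries. All 6 came from C57BL/6 brains at 1 year of age. No source used here states the kind of Ash1l allele. The replicates are labelled as separate samples, with no statement that each came from its own mouse; the p-values below cover the spread among these 6 libraries, which may be technical.

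The choroid plexus is a folded epithelium inside the ventricles that secretes cerebrospinal fluid and carries thyroid hormone and folate into it. Ependymal cells line the ventricle walls, including the wall that the striatum forms, and move fluid with motile cilia. The meninges are fibroblast layers that wrap the brain and follow vessels into it, laying down proteoglycans and making retinoic acid. Transcripts of these tissues in a striatal sample are used here as a readout of how the tissue was cut. The readout is a loose one, because ependyma lines the striatal wall and meningeal fibroblasts follow vessels into the brain. Which cells gave the reads was not tested.

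Libraries held between 12080663 and 18798694 counts, of which mitochondrial genes took 15.9% to 18.8%. One read was worth between 0.0550 and 0.0828 CPM (counts scaled to library size, with TMM factors). Ash1l itself stood at 281, 198 and 253 CPM in Ash1l het striata and at 308, 295 and 293 CPM in WT striata, lower in every Ash1l het library, but the difference did not pass (a log2 fold change of -0.29, SE 0.13, edgeR quasi-likelihood adjusted p = 0.858). The protocol speaks of male mice, but Xist, made from the inactive X chromosome, reached 1956 CPM or more in all 6 libraries, and 4 Y-linked genes together gave 0 counts in 5 libraries and 1 count in the other. These values go against the stated sex in both genotypes. Markers of spiny projection neurons, the principal cells of the striatum, summed to between 7965 and 9680 CPM in Ash1l het striata and to between 8177 and 9267 CPM in WT striata over 12 genes.

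None of the 3 tissue sources separated Ash1l het from WT. Choroid plexus markers summed to 40.9, 43.9 and 42.9 CPM in Ash1l het libraries, against 46.5, 33.6 and 32.8 CPM in the WT libraries. The WT libraries lay on either side of the Ash1l het ones. Ependymal markers summed to 40.9, 45.5 and 37.7 CPM in Ash1l het striata and to 47.4, 47.5 and 38.4 CPM in WT striata, again with overlap. Meningeal markers summed to 114, 284 and 258 CPM in Ash1l het striata and to 172, 144 and 155 CPM in WT striata. Here the Ash1l het libraries held both the lowest and the highest values. In bulk tissue, fewer cells of a type and less RNA per cell cannot be told apart.

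The ratio of group means was 1.13 for choroid plexus, 0.931 for ependyma and 1.39 for meninges, or 0.18, -0.10 and 0.48 on the log2 scale. Pooled SDs between replicates of 1 genotype were 0.20, 0.16 and 0.52 on that scale, each larger than the size of the ratio beside it when all 6 libraries were used. With single libraries left out, the log2 ratio ran from 0.088 (without WT replicate 3) to 0.358 (without WT replicate 1) for choroid plexus. For ependyma the lowest was -0.198, when WT replicate 3 was left out, and the highest -0.041, when Ash1l het replicate 3 was. The meningeal log2 ratio ran from 0.243 (without Ash1l het replicate 2) to 0.788 (without Ash1l het replicate 1). Each overlap rested on a single library. Choroid plexus sums were higher in Ash1l het without overlap once WT replicate 1 was left out. Ependymal sums were lower in Ash1l het without overlap without WT replicate 3, and meningeal sums higher without Ash1l het replicate 1.

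**Figure D1:**
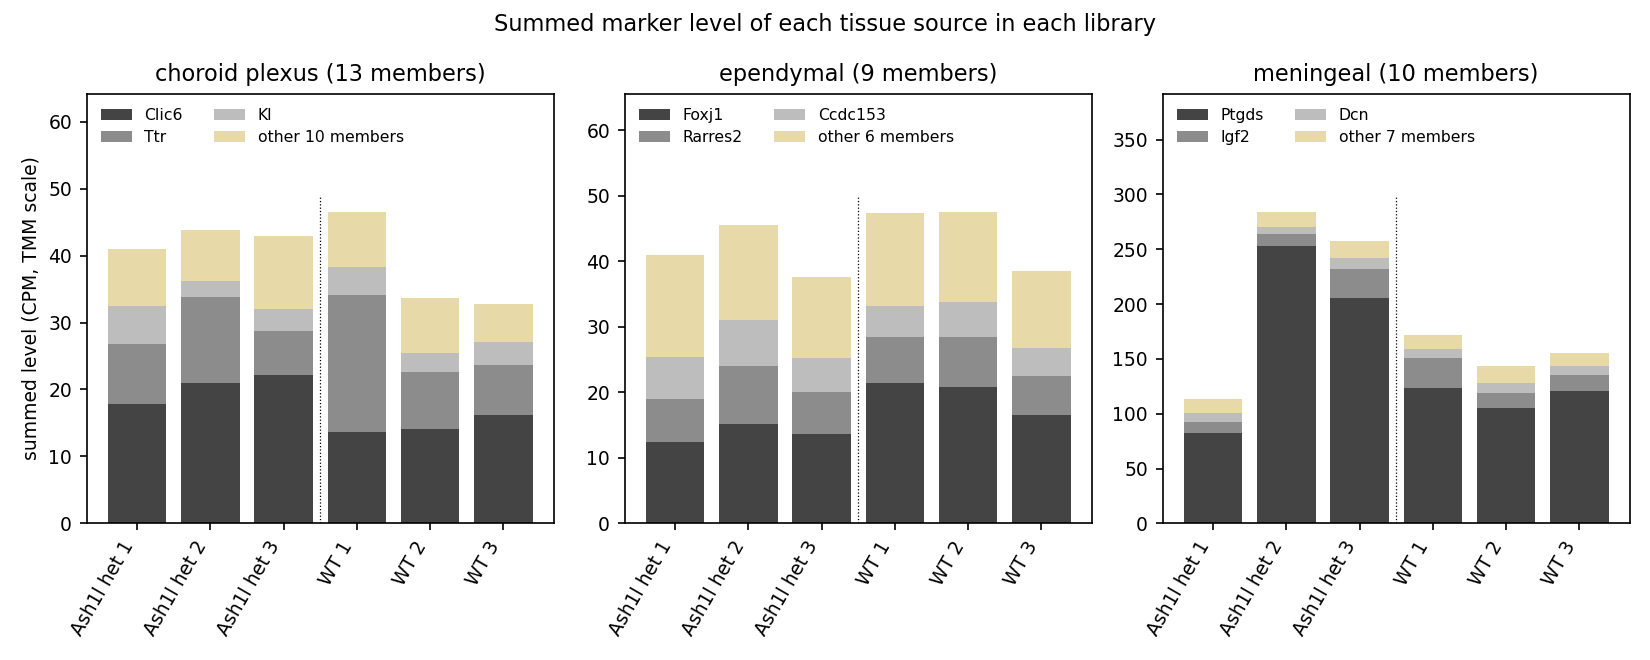
Summed level in CPM (vertical axis) of each tissue source in each library (horizontal axis, Ash1l het left of WT), with the 3 most abundant members in grey and the rest in tan. Choroid plexus and ependymal sums overlap between genotypes, and Ptgds carries most of the meningeal sum, which runs from 114 to 284 CPM in Ash1l het striata and from 144 to 172 CPM in WT striata.

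Averaged over libraries, each sum was led by a single gene, but in WT replicate 1 Ttr (20.5 CPM) lay above Clic6 (13.7 CPM). Clic6 made up 43.5% of the choroid plexus sum, Foxj1 38.8% of the ependymal sum and Ptgds 79.0% of the meningeal sum, averaged over libraries. The sign of the group ratio turned in all 3 sources when the lead gene was taken out: without it the log2 ratio was -0.048 for choroid plexus, 0.15 for ependyma and -0.092 for meninges, and the genotypes still overlapped. On the deposited FPKM scale, which weighs short transcripts such as Ttr more heavily, the choroid plexus log2 ratio was -0.015. On that scale the ependymal log2 ratio was 0.008 and the meningeal log2 ratio 0.58.

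Of the 32 genes, 25 passed the low-count filter (edgeR default, minimum count 10) and were tested: 7 choroid plexus, 8 ependymal and all 10 meningeal genes. The edgeR quasi-likelihood test called 0 of the 25 at an adjusted p under 0.05, with adjusted p-values from 0.801 to 0.991, against 2 calls among all 15267 genes tested (0.0131%). DESeq2 also called 0 of the 25, with 3 at an unadjusted p under 0.05, against 39 calls (0.255%) and 4.92% at an unadjusted p under 0.05 among all genes tested. By edgeR an unadjusted p under 0.05 was found for 3 of the 25 (12%), Clic6, F5 and Foxj1, against 5.78% of all genes tested. By sign 14 of the 25 were higher in Ash1l het and 11 lower, against 51.35% higher among all genes tested. The median log2 fold change was 0.11, against 0.006 over all genes tested. Clic6 was the 1 tested gene whose Ash1l het libraries all lay above WT (4.0%, against 6.18% of all genes tested). Foxj1, Rsph1 and Slc13a4, 3 of 25 (12%), lay below WT in every Ash1l het library, against 5.53% of all genes tested.

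**Figure D2:**
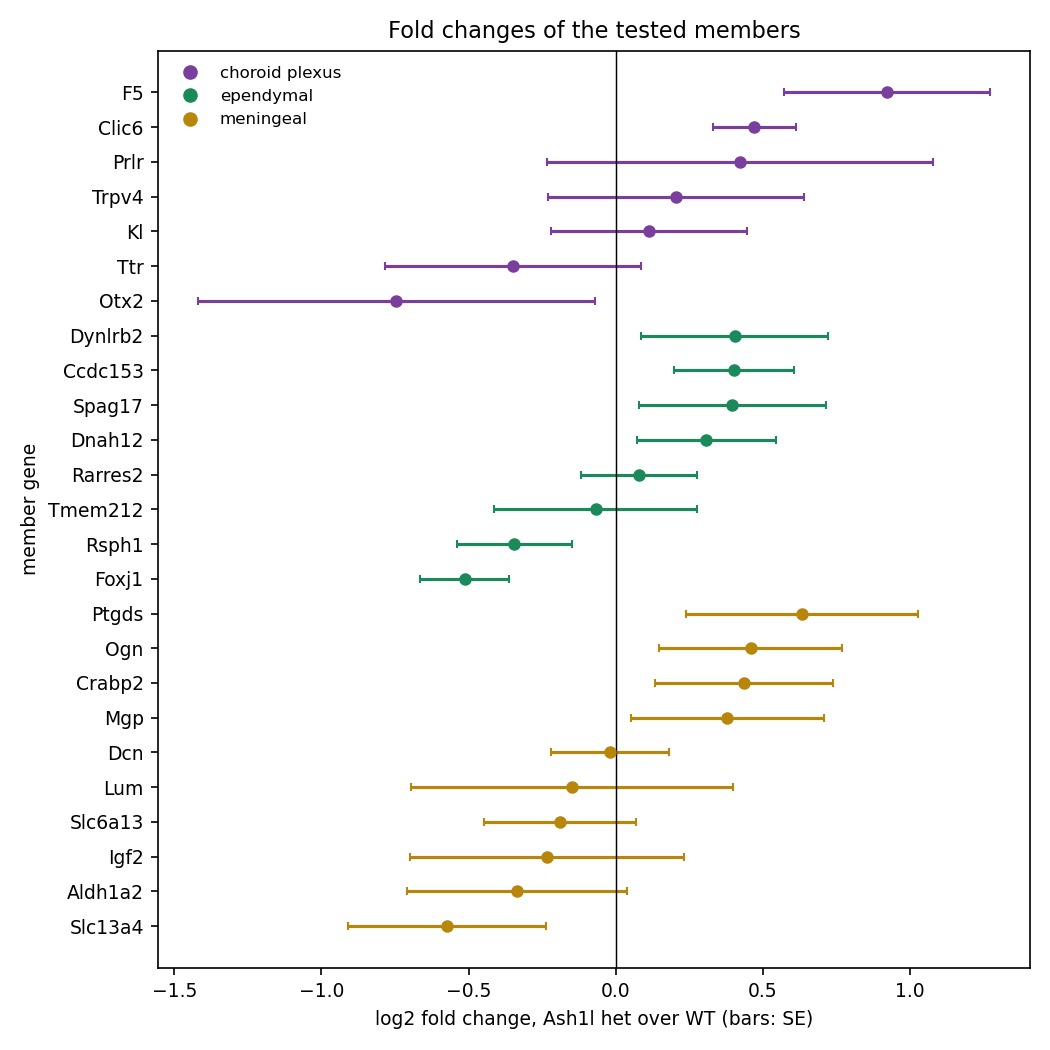
Log2 fold change of Ash1l het over WT (horizontal axis, bars are SE) for the 25 tested genes, ordered within each tissue source. Every source holds genes on either side of 0, from -0.75 for Otx2 to 0.92 for F5, and none passed the test.

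Among choroid plexus genes, several that define the epithelium gave few counts. Ttr, which encodes transthyretin, the thyroid hormone carrier that choroid plexus secretes in bulk (ENSMUSG00000061808; GRCm38 chromosome 18, 20665250 to 20674324, plus strand), stood at 8.98, 12.8 and 6.60 CPM in Ash1l het striata and at 20.5, 8.61 and 7.47 CPM in WT striata. WT replicate 1 was the high library, and the other 5 overlapped. Ttr averaged 9.47 ± 3.15 CPM in Ash1l het striata and 12.2 ± 7.19 CPM in WT striata (SD, n = 3 each), a log2 fold change of -0.35 (SE 0.43, with an edgeR adjusted p of 0.932), with a 95% interval from 0.383-fold to 1.61-fold. The sign turned, to 0.23, without WT replicate 1.

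Folr1, the folate receptor of the epithelium, had 3, 11 and 6 counts in Ash1l het and 10, 4 and 10 counts in WT. Its locus overlaps Anapc15 on the opposite strand, which had 114, 140 and 193 counts in Ash1l het and 111, 150 and 210 counts in WT, so the few Folr1 counts are uncertain. Aqp1, its water channel, had 1, 7 and 7 counts in Ash1l het and 10, 7 and 4 counts in WT. Slc4a5, a sodium bicarbonate cotransporter, had 3 counts in all across Ash1l het and 7 across WT. Counts over 3 libraries were 6 in Ash1l het and 7 in WT for Cldn2, a claudin of leaky tight junctions. Lmx1a, a LIM homeobox gene of the roof plate from which choroid plexus arises, gave 0 counts in all Ash1l het libraries and 1 count in WT; a count of 0 allows up to 3 counts, or 0.165 to 0.204 CPM in those libraries. Sostdc1, an antagonist of BMP and Wnt signalling, stood between 0.330 and 0.544 CPM in Ash1l het striata and between 0.239 and 0.463 CPM in WT striata.

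Otx2, the homeobox factor that specifies choroid plexus, stood at 0.748, 0.065 and 0.330 CPM in Ash1l het striata and at 0.745, 0.777 and 0.405 CPM in WT striata (a log2 fold change of -0.75, SE 0.68, with an edgeR adjusted p of 0.908). Its log2 fold change was -1.59 without Ash1l het replicate 1 and -0.27 without Ash1l het replicate 2, with edgeR adjusted p-values from 0.825 to 0.9995 over all alternatives. Otx2 was the only one of the 7 genes that stayed under 1 CPM in every library to pass the low-count filter. Together these 7 genes gave 24, 32 and 28 counts in Ash1l het and 38, 36 and 31 counts in WT. On the TMM scale the sums were 1.63, 2.09 and 1.54 CPM in Ash1l het striata and 3.15, 2.15 and 1.80 CPM in WT striata, with overlap. WT replicate 1 was the highest library for Ttr, Folr1, Aqp1 and Cldn2, 4 of the 12 choroid plexus genes other than Lmx1a. By CPM Ash1l het replicate 2 was the next highest for all 4, though Cldn2 had only 1 to 3 counts per library. For Aqp1, Ash1l het replicates 2 and 3 and WT replicate 2 each had 7 counts.

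The most abundant choroid plexus gene by CPM was Clic6. Which cells gave its reads was not tested, so its level is not by itself an amount of choroid plexus. Clic6, a chloride intracellular channel family gene (ENSMUSG00000022949; chromosome 16, 92485736 to 92541243, plus strand), stood at 17.8, 20.9 and 22.2 CPM in Ash1l het striata and at 13.7, 14.1 and 16.2 CPM in WT striata. Every Ash1l het library was above every WT library, and WT replicate 1, the highest for Ttr, was the lowest for Clic6. It averaged 20.3 ± 2.24 CPM in Ash1l het striata and 14.6 ± 1.34 CPM in WT striata (SD, n = 3 each), or 1.39-fold, with a 95% interval from 1.12-fold to 1.73-fold. By edgeR quasi-likelihood the unadjusted p was 0.00791 and the adjusted p 0.801, and the exact two-sided permutation p was 0.1, the minimum for 3 against 3. With 1 library left out the log2 fold change lay between 0.40 and 0.56.

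F5, coagulation factor V (chromosome 1, 164151838 to 164220277), stood at 2.24, 2.93 and 4.84 CPM in Ash1l het striata and at 2.32, 1.44 and 1.62 CPM in WT striata. Ash1l het replicate 3 was high and Ash1l het replicate 1 was inside the spread of WT. Its log2 fold change was 0.92 (SE 0.35, with an edgeR adjusted p of 0.857), and 0.55 without Ash1l het replicate 3. Trpv4, an osmosensitive cation channel, was likewise highest in Ash1l het replicate 3, at 1.84, 1.56 and 3.08 CPM in Ash1l het striata and 0.828, 2.69 and 2.03 CPM in WT striata. Kl, the klotho coreceptor for FGF23, stood at 5.71, 2.41 and 3.19 CPM in Ash1l het striata and at 4.14, 2.81 and 3.53 CPM in WT striata. Prlr, the prolactin receptor, stood at 2.72, 1.11 and 1.54 CPM in Ash1l het striata and at 1.99, 1.85 and 0.232 CPM in WT striata. For both the Ash1l het replicate 1 library was the highest, and the groups overlapped (log2 fold changes 0.11, SE 0.33, and 0.42, SE 0.66).

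Read per length, the order within the choroid plexus genes was Ttr at 8.92 FPKM and Clic6 at 4.35 FPKM on average over the 6 libraries, with all other members at or below 0.348 FPKM. A further 18 genes of the epithelium were read beside these, of which 11 passed the filter and edgeR called 0. By edgeR an unadjusted p under 0.05 was found for 3 of the 11, against 5.78% of all genes tested. By sign 5 were higher and 6 lower, against 51.35% higher among all genes tested. The median log2 fold change was -0.083, against 0.006 over all genes tested. Ace, which encodes angiotensin-converting enzyme, stood at 36.0, 27.4 and 48.1 CPM in Ash1l het striata and at 50.7, 50.5 and 67.5 CPM in WT striata (a log2 fold change of -0.60, SE 0.21, with an edgeR adjusted p of 0.857). In every library Ace lay above Ttr, which ran from 6.60 to 20.5 CPM, and which cells gave the Ace reads was not tested. Igfbp2, which binds insulin-like growth factors, stood at 1.70, 3.32 and 3.24 CPM in Ash1l het striata and at 4.06, 5.44 and 4.17 CPM in WT striata (a log2 fold change of -0.72, SE 0.29, with an edgeR adjusted p of 0.857). Neither passed. In both, 2 of the 11 tested, every Ash1l het library lay below every WT library, against 5.53% of all genes tested. The most abundant of the 18, Enpp2, an autotaxin gene that oligodendrocytes also express, stood between 150 and 264 CPM in Ash1l het striata and between 196 and 227 CPM in WT striata.

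**Figure D3:**
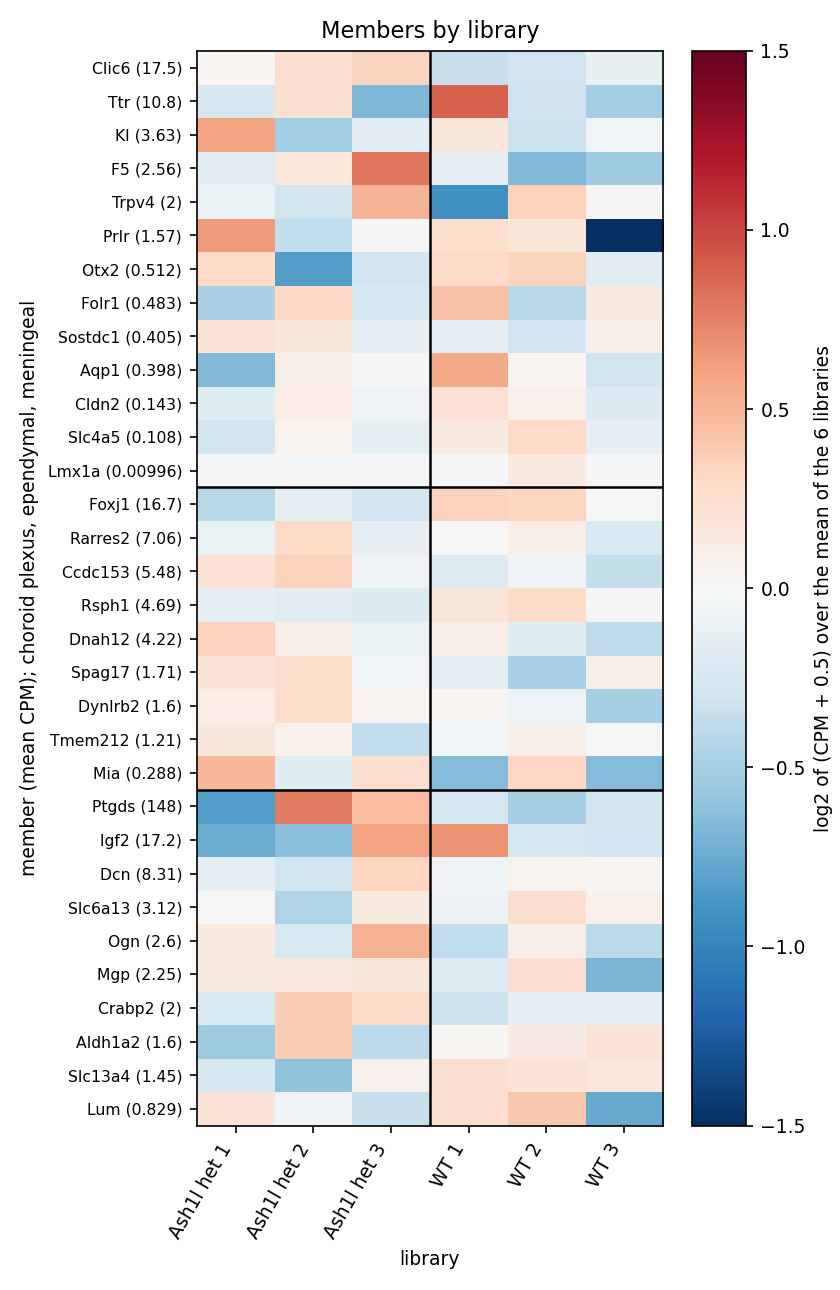
Each of the 32 genes (vertical axis, mean CPM in brackets) in each library (horizontal axis, Ash1l het left of WT), as log2 of CPM plus 0.5 over the mean of the 6 libraries. WT replicate 1 is highest for Ttr, Folr1, Aqp1 and Igf2, Ash1l het replicate 3 for Clic6, F5, Trpv4, Dcn and Ogn, and no source changes colour as a block between genotypes.

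Of the 8 ependymal genes tested, 5 had a positive and 3 a negative log2 fold change, and none passed. Foxj1, the forkhead factor that switches on motile cilium genes (ENSMUSG00000034227; chromosome 11, 116330704 to 116335399, minus strand), stood at 12.4, 15.2 and 13.6 CPM in Ash1l het striata and at 21.4, 20.9 and 16.6 CPM in WT striata. All Ash1l het libraries were below all WT libraries. Means were 13.7 ± 1.41 CPM in Ash1l het striata and 19.6 ± 2.64 CPM in WT striata (SD, n = 3 each), or 0.701-fold, with a 95% interval from 0.554-fold to 0.887-fold. By edgeR quasi-likelihood the unadjusted p was 0.00759 and the adjusted p 0.801, and the two-sided exact permutation p was 0.1, the smallest possible. Leaving out single libraries gave log2 fold changes from -0.62 to -0.45.

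Rsph1, a component of the radial spoke head, stood at 4.22, 4.17 and 4.01 CPM in Ash1l het striata and at 5.38, 5.80 and 4.57 CPM in WT striata (a log2 fold change of -0.34, SE 0.19, with an edgeR adjusted p of 0.886). Its Ash1l het libraries were nearly equal, and all lay below WT. Ccdc153, a coiled-coil gene of ciliated cells, stood at 6.46, 7.10 and 5.17 CPM in Ash1l het striata and at 4.72, 5.26 and 4.17 CPM in WT striata. Only Ash1l het replicate 3 was inside the spread of WT. Dnah12, an axonemal dynein heavy chain, stood at 5.51, 4.56 and 3.90 CPM in Ash1l het striata and at 4.55, 3.65 and 3.13 CPM in WT striata. Dynlrb2, a dynein light chain, stood at 1.77, 2.02 and 1.65 CPM in Ash1l het striata and at 1.66, 1.5 and 0.984 CPM in WT striata. Spag17, of the central pair of the axoneme, stood at 2.04, 2.15 and 1.65 CPM in Ash1l het striata and at 1.49, 1.08 and 1.85 CPM in WT striata. Groups overlapped for all 4, and none passed: log2 fold changes were 0.40 (SE 0.20) for Ccdc153, 0.31 (SE 0.24) for Dnah12, 0.41 (SE 0.32) for Dynlrb2 and 0.40 (SE 0.32) for Spag17, with edgeR adjusted p-values from 0.878 to 0.897. Reads of Spag17 can overlap Wdr3 on the opposite strand, and no source used here says whether reads were counted by strand.

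Promoters of Ccdc153, Dynlrb2 and Spag17 are shown as examples of ciliary gene promoters with and without the exact letters GTTGCC. Variants of these letters were not searched. Each is the RefSeq window of 300 bases on GRCm38.p6, from 250 bases before to 50 after the start site, printed 5′ to 3′ on the plus strand of the genome, which is also the strand of the gene. Capitals mark GTTGCC, the half-site bound by RFX factors, which act with Foxj1 on ciliary genes.
Ccdc153, chr9:44240427-44240726: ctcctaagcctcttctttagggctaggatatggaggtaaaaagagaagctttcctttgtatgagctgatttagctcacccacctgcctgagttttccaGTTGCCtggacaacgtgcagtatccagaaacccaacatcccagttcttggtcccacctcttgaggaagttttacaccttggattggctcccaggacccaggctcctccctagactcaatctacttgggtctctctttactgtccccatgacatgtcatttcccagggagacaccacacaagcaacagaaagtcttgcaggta
Dynlrb2, chr8:116504765-116505064: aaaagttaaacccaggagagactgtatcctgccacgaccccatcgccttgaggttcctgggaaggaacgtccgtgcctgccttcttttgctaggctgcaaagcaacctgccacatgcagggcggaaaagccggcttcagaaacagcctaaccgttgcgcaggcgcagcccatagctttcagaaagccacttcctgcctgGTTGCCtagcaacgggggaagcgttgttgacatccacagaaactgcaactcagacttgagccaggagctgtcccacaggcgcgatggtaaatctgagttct
Spag17, chr3:99885167-99885466: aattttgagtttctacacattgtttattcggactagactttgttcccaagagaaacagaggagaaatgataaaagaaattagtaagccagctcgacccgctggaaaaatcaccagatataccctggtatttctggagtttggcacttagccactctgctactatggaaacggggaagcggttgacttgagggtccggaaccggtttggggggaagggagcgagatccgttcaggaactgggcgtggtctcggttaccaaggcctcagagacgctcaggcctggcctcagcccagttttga

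In Ccdc153 the GTTGCC begins 152 bases before the start site, and in Dynlrb2 51 bases before it. Spag17 holds no match. Of the 6 ependymal genes with a promoter in the table (Ccdc153, Dnah12, Dynlrb2, Mia, Spag17 and Tmem212), 2 held GTTGCC on either strand, against 14.1% of 27025 genes with such windows. Among all 21 marker genes with a promoter, 4 held GTTGCC, also the choroid plexus genes Aqp1 and Otx2. TGTTTAC, a forkhead core searched separately on both strands, was found in 0 of the 6, in 1 of the 21 (Prlr) and in 4.05% of all genes. A match is a description of the letters and no evidence of binding, and no match says only that these letters are not in this window.

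Rarres2, which encodes the secreted chemoattractant chemerin, stood at 6.53, 8.80 and 6.43 CPM in Ash1l het striata and at 7.04, 7.59 and 5.96 CPM in WT striata (a log2 fold change of 0.079, SE 0.20), and its locus overlaps Lrrc61 on the opposite strand. Tmem212, a transmembrane gene, lay between 0.825 and 1.43 CPM in Ash1l het striata and between 1.16 and 1.32 CPM in WT striata. Mia, a small secreted protein gene, had 9, 3 and 8 counts in Ash1l het and 0, 8 and 0 counts in WT, too few to be tested, and it overlaps the gene model Gm21983 on the same strand, so its counts are uncertain. Between its highest and lowest library Rarres2 varied 1.48-fold, Foxj1 1.73-fold and Dynlrb2 2.05-fold, while Ttr varied 3.10-fold and Ptgds 3.06-fold.

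A list of 32 further genes of the ciliary programme and of ependymal cells was read in the same way, of which 30 were in the table under those names and 29 were tested. By edgeR 0 were called and 1 of the 29 had an unadjusted p under 0.05, against 5.78% of all genes tested. By sign 19 were higher and 10 lower, against 51.35% higher among all genes tested. The median log2 fold change was 0.16, against 0.006 over all genes tested. Vim, an intermediate filament gene of ependymal cells and reactive astrocytes, stood at 27.9, 44.2 and 25.8 CPM in Ash1l het striata and at 16.9, 18.2 and 12.3 CPM in WT striata (a log2 fold change of 1.05, SE 0.23, with an edgeR adjusted p of 0.690). Gfap, the astrocyte filament gene, stood beside it at 412, 733 and 104 CPM in Ash1l het striata and at 154, 62.1 and 83.7 CPM in WT striata; its part in the Vim value was not tested. Ccdc39, which sets the length of the axonemal repeat, lay between 22.8 and 31.6 CPM in Ash1l het striata and between 18.9 and 25.2 CPM in WT striata (a log2 fold change of 0.29, SE 0.16, with an edgeR adjusted p of 0.878). The most abundant gene of the list, S100b, which astrocytes also make, averaged 103.8 ± 38.0 CPM in Ash1l het striata and 103.9 ± 11.4 CPM in WT striata (SD, n = 3 each).

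**Figure D4:**
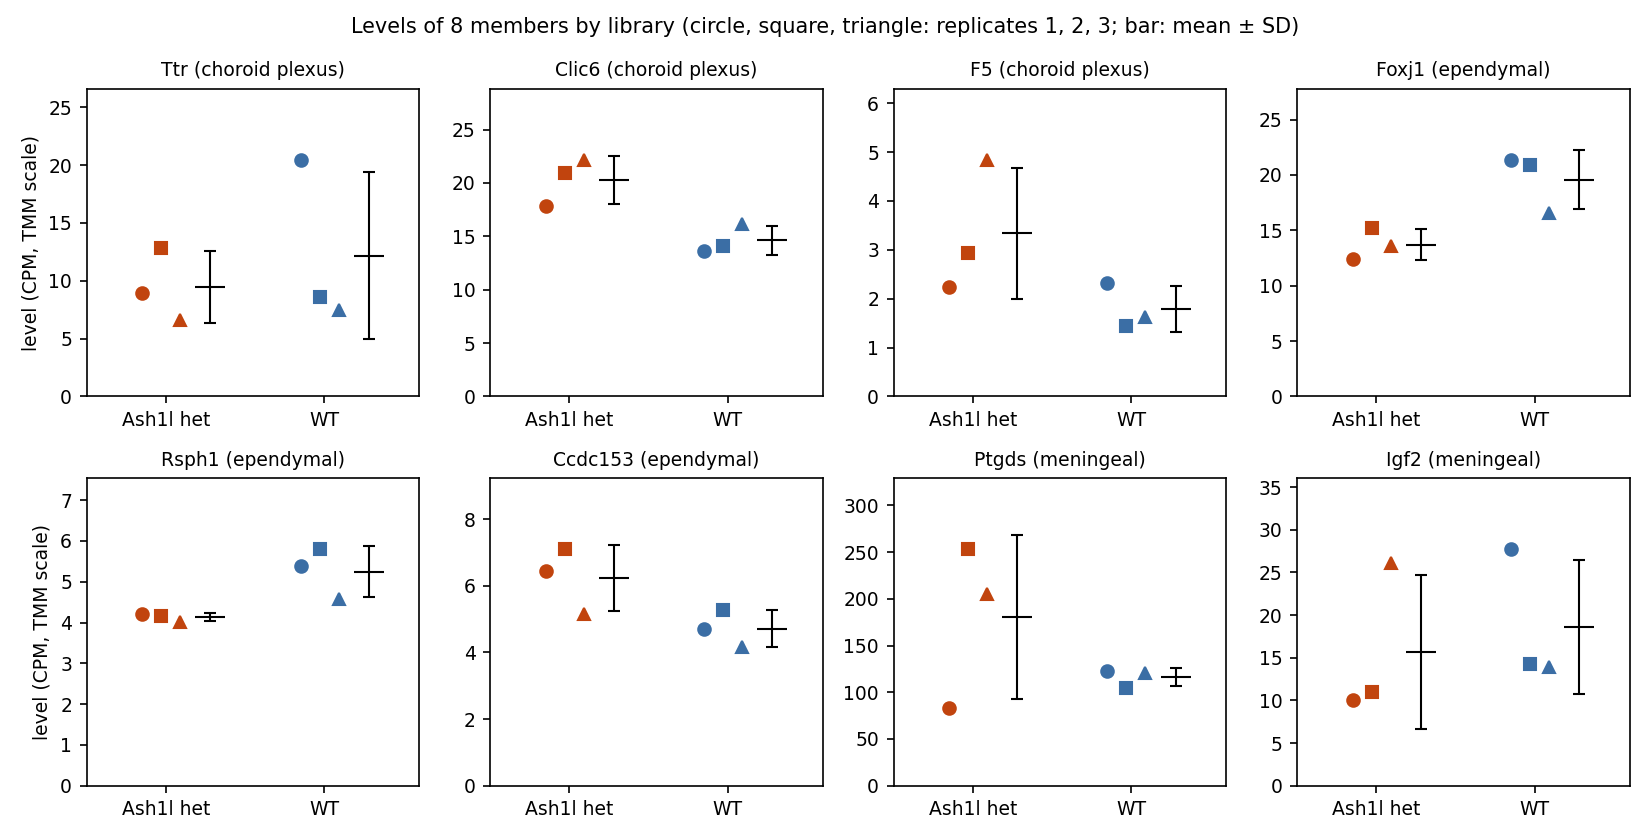
Levels in CPM (vertical axis, each panel from 0) of 8 genes in Ash1l het and WT libraries (horizontal axis), with symbols for replicates 1 to 3 and a bar for the mean ± SD. Clic6 lies above WT and Foxj1 and Rsph1 below WT in every Ash1l het library, while Ttr and Igf2 have a high WT replicate 1 and Ptgds spreads from 82.8 to 253 CPM in Ash1l het.

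Meningeal genes were dominated by Ptgds, the lipocalin-type prostaglandin D synthase that leptomeningeal cells, choroid plexus and oligodendrocytes all make (ENSMUSG00000015090; chromosome 2, 25466709 to 25470046, minus strand). It stood at 82.8, 253 and 205 CPM in Ash1l het striata and at 123, 105 and 121 CPM in WT striata. Ash1l het replicates 2 and 3 were the highest libraries and Ash1l het replicate 1 the lowest of all 6. The means were 180 ± 87.9 CPM in Ash1l het striata and 116 ± 9.89 CPM in WT striata (SD, n = 3 each), with a log2 fold change of 0.63 (SE 0.39, with an edgeR adjusted p of 0.889). Leaving out Ash1l het replicate 1 put it at 0.98 and the edgeR adjusted p 0.0651, the smallest that Ptgds had under any alternative, the largest being 0.9995. Leaving out Ash1l het replicate 2 instead put the log2 fold change at 0.31. The 10 oligodendrocyte genes summed to 7421, 8459 and 5748 CPM in Ash1l het striata and to 7054, 5660 and 6214 CPM in WT striata, which made Ash1l het replicate 2 the highest library for both, while Ash1l het replicate 3 was among the lower libraries for the oligodendrocyte sum. Their part in the Ptgds value was not tested.

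Igf2, a fetal growth factor that adult leptomeninges and choroid plexus still make (ENSMUSG00000048583; chromosome 7, 142650766 to 142666816, minus strand), stood at 10.1, 10.9 and 26.1 CPM in Ash1l het striata and at 27.7, 14.3 and 13.95 CPM in WT striata. One library of each genotype was high, Ash1l het replicate 3 and WT replicate 1. The log2 fold change was -0.23 (SE 0.47, with an edgeR adjusted p of 0.959), and it was 0.16 without WT replicate 1 and 0.006 without Ash1l het replicate 1. WT replicate 1 was thus highest for Igf2 as for Ttr, whereas Ash1l het replicate 3, the other high library for Igf2, was the lowest for Ttr.

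Without Ptgds and Igf2, the other 8 meningeal genes summed to 20.9, 20.0 and 26.3 CPM in Ash1l het striata and to 20.7, 24.6 and 20.6 CPM in WT striata. That sum averaged 22.4 ± 3.40 CPM in Ash1l het striata and 21.9 ± 2.28 CPM in WT striata (SD, n = 3 each), and the groups overlapped. The small leucine-rich proteoglycan genes of fibroblast matrix, Dcn, Ogn and Lum, showed no common direction. Dcn stood at 7.55, 6.65 and 10.6 CPM in Ash1l het striata and at 7.95, 8.67 and 8.51 CPM in WT striata (a log2 fold change of -0.019, SE 0.20). Ogn stood at 2.92, 2.15 and 3.96 CPM in Ash1l het striata and at 1.90, 2.81 and 1.85 CPM in WT striata (a log2 fold change of 0.46, SE 0.31), highest in Ash1l het replicate 3 as Dcn was. Lum was scarce, between 0.550 and 1.02 CPM in Ash1l het striata and between 0.290 and 1.26 CPM in WT striata. Mgp, an inhibitor of matrix calcification, was nearly equal in the Ash1l het libraries, at 2.52, 2.54 and 2.58 CPM, against 1.90, 2.75 and 1.22 CPM in WT striata.

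Among the meningeal markers were 2 transporter genes. Slc13a4, a sulfate transporter, stood at 1.16, 0.782 and 1.54 CPM in Ash1l het striata and at 1.82, 1.73 and 1.68 CPM in WT striata. The WT libraries were close together and all above Ash1l het, but the difference did not pass (a log2 fold change of -0.57, SE 0.34, with an edgeR adjusted p of 0.887). Slc6a13, a GABA and taurine transporter, stood at 3.13, 2.15 and 3.46 CPM in Ash1l het striata and at 2.90, 3.77 and 3.30 CPM in WT striata, with overlap (a log2 fold change of -0.19, SE 0.26). In the retinoic acid pathway, Aldh1a2, the enzyme that makes it, stood at 0.952, 2.22 and 1.10 CPM in Ash1l het striata and at 1.66, 1.79 and 1.91 CPM in WT striata. Crabp2, which carries retinoic acid to its nuclear receptor, stood at 1.63, 2.74 and 2.53 CPM in Ash1l het striata and at 1.49, 1.79 and 1.80 CPM in WT striata. Ash1l het replicate 2 was the highest library for both, and neither passed (log2 fold changes -0.33, SE 0.37, and 0.44, SE 0.30).

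Of 25 further fibroblast genes 19 were tested and edgeR called 0. By edgeR 2 of the 19 had an unadjusted p under 0.05, against 5.78% of all genes tested. By sign 7 were higher and 12 lower, against 51.35% higher among all genes tested. The median log2 fold change was -0.057, against 0.006 over all genes tested. Fn1, which encodes fibronectin and is also made by vessels, stood at 63.6, 43.8 and 71.7 CPM in Ash1l het striata and at 41.4, 43.2 and 41.3 CPM in WT striata (a log2 fold change of 0.51, SE 0.17, with an edgeR adjusted p of 0.834). Cemip, a hyaluronan-degrading protein gene, stood at 4.08, 3.91 and 4.12 CPM in Ash1l het striata and at 5.13, 6.04 and 5.39 CPM in WT striata (a log2 fold change of -0.45, SE 0.19, with an edgeR adjusted p of 0.857). Col6a1, the most abundant gene of that list, lay between 90.3 and 112 CPM in Ash1l het striata and between 89.2 and 92.5 CPM in WT striata. Endothelial and mural genes, 16 in all, summed to between 454 and 563 CPM in Ash1l het striata and to between 400 and 487 CPM in WT striata, with overlap, and 5 blood genes to between 56.1 and 123 CPM in Ash1l het striata and between 23.0 and 35.4 CPM in WT striata. The blood sum was higher in every Ash1l het library, and its part in the values above was not tested.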

How the data were processed

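Total RNA from dorsal striatum was made into stranded mRNA libraries, per the labels' protocols. The authors deposited whole-number counts per gene and FPKM values for the same genes, and all 6 single-sample files matched the series table exactly. Per the submitters' processing notes, the tools were HISAT2, StringTie, edgeR, FastQC and CASAVA on GRCm38; nothing used here states their roles or settings. The 32 genes and all lists were chosen with earlier results of these data known.

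Counts were tested over the whole table by edgeR 4.0.16 under R 4.3.3 (quasi-likelihood F test), with TMM scaling, the default filter (minimum count 10), robust dispersion and genotype as the single term, and Benjamini-Hochberg adjustment over 15267 genes. The fit was tested on simulated counts. SE is the log2 fold change over the root of the F statistic. Summed levels got no test. Alternatives were DESeq2 1.42.0, RLE scaling, no filter, a filter of 1 CPM in 3 libraries, the replicate number as a block, each library left out, and sums by FPKM or without lead genes. Sums without a pair of lead genes were added after seeing the data. The named genes were all 32, and from each other list up to 2 genes with the smallest p and the most abundant gene, given here for the lists that bear on the markers, and some of these are not reported here; Gfap, Lrrc61, Xist and Y-linked genes were chosen after their values were seen. In the lists, the symbol Dlx6os1 stood on more than 1 row and the row with most counts was used. Floors cover counting error only, and the 95% intervals of fold changes come from the edgeR fit.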

Additional observations from a re-analysis of the deposited data

How the results depend on the processing

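The count of 0 called marker genes held under every alternative run, with 0 of 24 to 32 tested. Over all genes, DESeq2 called 39 where the edgeR quasi-likelihood test called 2, and leaving out single libraries gave 1 to 13 calls. With a replicate block the count over all genes was 3, and the block changed no call among the markers. The summed levels then had log2 ratios of 0.20 (choroid plexus), -0.10 (ependyma) and 0.37 (meninges). Deviations of same-numbered libraries correlated at 0.056, -0.075 and 0.011, and those of differently numbered libraries at -0.13 to 0.126. With 3 libraries per group, these values cannot decide whether the numbers pair the samples. Without the lead gene the log2 ratios were -0.048 for choroid plexus, 0.154 for ependyma and -0.092 for meninges. Without both Ttr and Clic6 (chosen after seeing the data) the choroid plexus log2 ratio was 0.24, and without both Ptgds and Igf2 the meningeal log2 ratio was 0.029. Of 25 tested genes, 16 kept the sign of their fold change in all alternatives run, and 9 turned sign when a single library was left out and under no other alternative. Their log2 fold changes with libraries left out ran from -0.632 to 0.231 for Ttr, from -0.307 to 0.346 for Kl, from -0.107 to 0.773 for Prlr, from -0.151 to 0.564 for Trpv4 and from -0.223 to 0.144 for Tmem212. They ran from -0.083 to 0.159 for Rarres2, from -0.243 to 0.114 for Dcn, from -0.589 to 0.255 for Lum and from -0.821 to 0.158 for Igf2; the cause was not tested. The 6 choroid plexus genes that did not pass the low-count filter and Mia had 1 to 44 counts over all 6 libraries and were not tested.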

Other observations

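Genes that handle retinoids and thyroid hormone, which the choroid plexus and meninges deliver to the brain, were read beside the markers. Of 16, 14 were tested and edgeR called 0. By edgeR 0 of the 14 had an unadjusted p under 0.05, against 5.78% of all genes tested. By sign 3 were higher and 11 lower in Ash1l het, against 51.35% higher among all genes tested. The median log2 fold change was -0.10, against 0.006 over all genes tested. Dhrs3, a retinal reductase, stood at 16.1, 12.4 and 12.5 CPM in Ash1l het striata and at 14.4, 21.0 and 16.9 CPM in WT striata (a log2 fold change of -0.36, SE 0.18, with an edgeR adjusted p of 0.877). Thra, a thyroid hormone receptor, was the most abundant, between 343 and 471 CPM in Ash1l het striata and between 441 and 501 CPM in WT striata.

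The subventricular zone lies between the ependyma and the striatum and holds neural progenitors. Its 10 genes summed to between 118 and 149 CPM in Ash1l het striata and to between 141 and 148 CPM in WT striata. By sign 3 were higher and 7 lower, against 51.35% higher among all genes tested. EdgeR called 0 and gave 1 of the 10 an unadjusted p under 0.05, against 5.78% of all genes tested. Dlx2, a homeobox gene of striatal progenitors, stood at 5.78, 4.04 and 7.31 CPM in Ash1l het striata and at 6.46, 9.68 and 9.67 CPM in WT striata (a log2 fold change of -0.59, SE 0.25, with an edgeR adjusted p of 0.857).

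Of the other lists edgeR also called 0 genes. An unadjusted p under 0.05 was found for 3 of 16 endothelial and mural genes, 5 of 5 blood genes, 1 of 10 oligodendrocyte genes and 3 of 12 spiny projection neuron genes, against 5.78% of all genes tested. Median log2 fold changes were 0.20 for endothelial and mural genes, 2.04 for blood genes, 0.07 for oligodendrocyte genes and -0.14 for spiny projection neuron genes.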
